A study of Mus musculus and Homo sapiens with 10 samples.

Results

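Short stretches of K562 chromatin that carried both H3K122ac and H3K27ac but no called H3K4me1 were examined. K562 is a human erythroleukaemia line with a BCR-ABL1 fusion, here at passage 14 with no treatment named. Chromatin had been cut with micrococcal nuclease and immunoprecipitated with 1 antibody per library, and 1 library each of H3K122ac, H3K27ac and H3K4me1 was used. The series also holds 1 K562 input library and 6 libraries of mouse embryonic stem cells, which were not analysed here. An island is a run of enriched windows joined by the authors' caller. The islands described were those of the H3K122ac list that were shorter than 10000 bp, met an H3K27ac island by at least 1 bp and met no H3K4me1 island. They were thus chosen by the called enrichment of all 3 marks. They numbered 3096 of 72662 H3K122ac islands, or 4.26% (Wilson 95% interval 4.12 to 4.41%), and together spanned 4657800 bp. Among the 55249 H3K122ac islands under 10000 bp that met H3K27ac, they made up 5.60% (5.42 to 5.80%). That interval covers counting only, and the definition moved the number further: 8544 islands (15.5%) had no H3K4me1 island of fold 2 or more, 1087 were left when H3K27ac needed a fold of 3, and 1383 (2.50%) had no H3K4me1 within 5000 bp. The other 52153 met H3K4me1 as well and are called 3-mark islands below, while the 3096 are called H3K4me1-free islands, which means only that no H3K4me1 island was called there.

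H3K27ac is a histone tail mark laid down by the acetyltransferases p300 and CBP, and it is found at active promoters and enhancers. H3K122 lies at the lateral surface of the histone octamer, close to the nucleosome dyad, where acetylation can loosen the contact between histone and DNA. H3K4me1 is typical of enhancers and of the flanks of active promoters, while the nucleosomes nearest to an active transcription start usually carry H3K4me3 in its place. H3K4me3 was not among the marks of this series. Regions were not assigned to genes, since no annotation of the human build was used here.

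The H3K122ac list held 18283729 reads inside its islands, the H3K27ac list 34195325 and the H3K4me1 list 35562145. The fold of an island is the authors' ratio of immunoprecipitated to background reads, divided by a single library ratio of 0.258 for H3K122ac, 0.688 for H3K27ac and 0.581 for H3K4me1. In each pair of lists, all islands with identical ends had the same background count, for example 5183 of 5183 between H3K122ac and H3K27ac. The folds of the 3 marks therefore share their background. Since the lists themselves chose the islands and there was 1 library per mark, every value below is a description and no difference was tested. Intervals cover counting error only, and neighbouring islands are not independent.

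The H3K4me1-free islands were short and spanned a wide range of enrichment. Their median length was 1200 bp (95% interval of the median 1200 to 1400), against 2200 bp in 3-mark islands. The median H3K122ac fold was 5.20 (4.99 to 5.46) in H3K4me1-free islands and 5.93 (5.88 to 5.98) in 3-mark islands. The sign of this difference depended on the definition: the log2 ratio of the medians was -0.19, and it was positive in 4 of 10 alternatives, up to 0.66 when H3K27ac needed a fold of 3. At a q-value of at most 1e-10, and at an H3K122ac fold of 3 or more, its counting interval included 0. The 10th and 90th percentiles were 1.94 and 22.4 in H3K4me1-free islands, against 2.37 and 15.9 in 3-mark islands, so H3K4me1-free islands reached further out at both ends. H3K122ac islands with H3K4me1 and no H3K27ac had a lower median of 3.23, and those with neither mark 4.55. Each H3K4me1-free island held few reads, with a median of 73 H3K122ac reads over 51 background reads, against 165 over 112 in 3-mark islands. Background was thinner as well, at a median of 45 reads per kb (43.7 to 46.1), against 52.7 in 3-mark islands. Under 10 background reads were counted in 66 H3K4me1-free islands (2.13%), against 0.0729% of 3-mark islands, and the highest fold among the 3096, 164.6, was one of them.

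**Figure D1:**
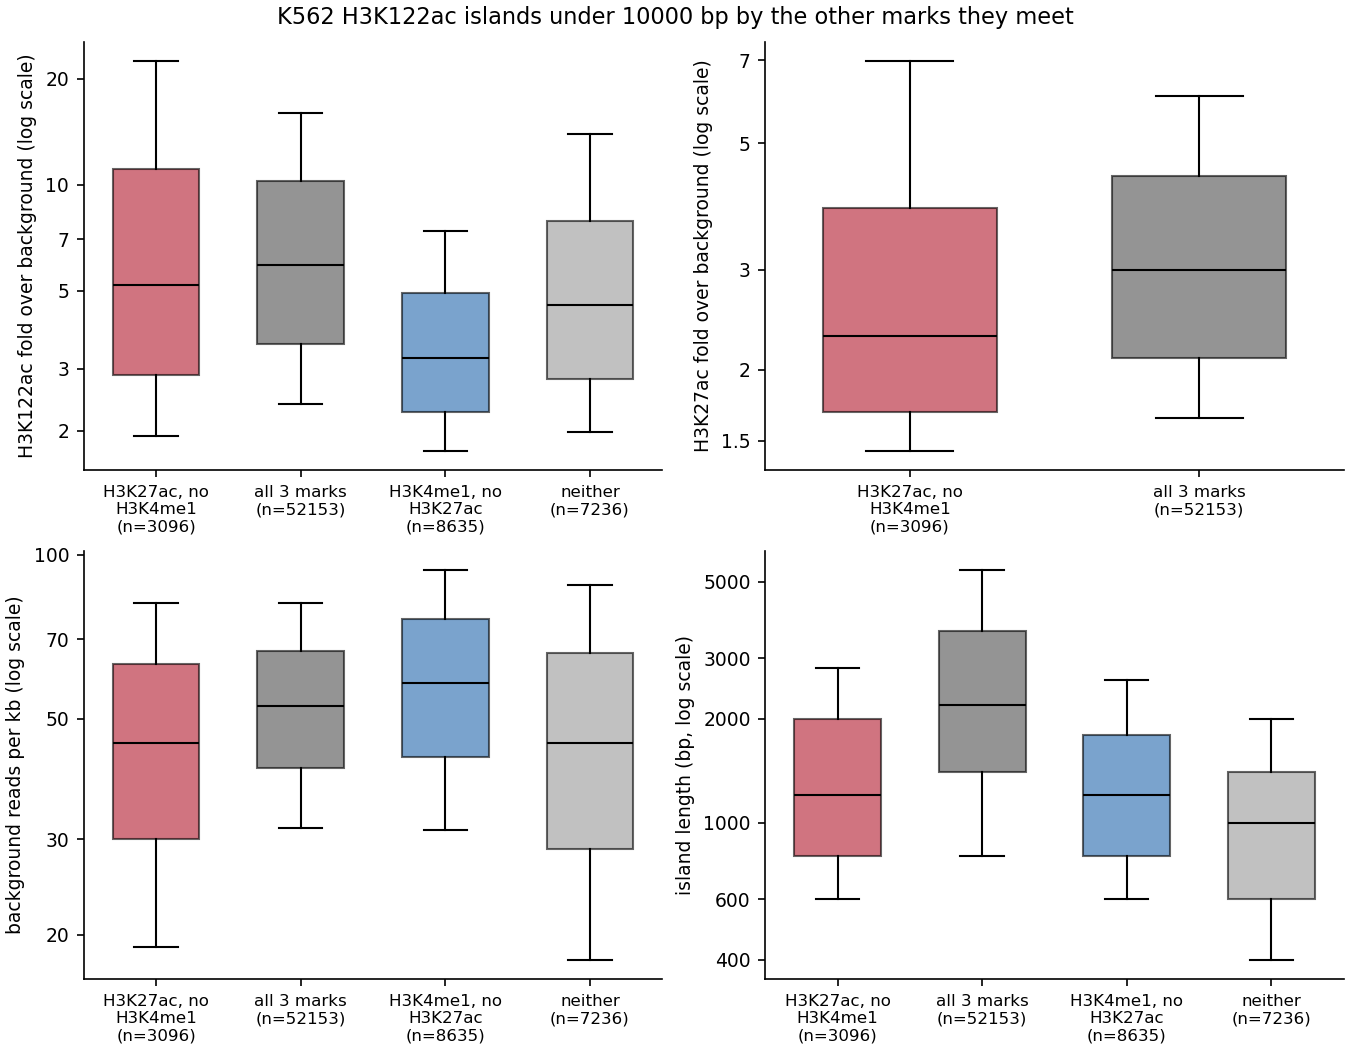
H3K122ac fold, H3K27ac fold, background reads per kb and length of K562 H3K122ac islands under 10000 bp, divided by the other marks they met, on log scales; lines are medians, boxes the 25th to 75th percentiles and whiskers the 10th to 90th. The H3K4me1-free islands have the widest spread of H3K122ac fold, with a median of 5.20, beside 5.93 in islands with all 3 marks, a difference whose sign reversed in 4 of 10 alternatives.

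Counts at both ends of the fold range were set beside the other classes. A fold under 3 was found in 825 H3K4me1-free islands, or 26.6% (25.1 to 28.2%), and in 18.2% of 3-mark islands, with 22.4% over all H3K122ac islands. The share was 28.3% in islands with neither other mark and 44.6% in those with H3K4me1 and no H3K27ac. A fold of 10 or more was found in 851, or 27.5% (25.9 to 29.1%), against 26.0% of 3-mark islands and 22.6% over the whole list. A fold of 20 or more was found in 376, or 12.1% (11.0 to 13.3%), against 4.78% (4.60 to 4.96%) of 3-mark islands and 4.55% over the whole list. Islands with neither other mark reached it in 5.31% and those with H3K4me1 and no H3K27ac in 0.544%. These folds come from the contrast that chose the islands.

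Length and fold were tied in opposite ways in the 2 kinds of island. Below 1000 bp the median fold was 6.16 in 912 H3K4me1-free islands and 4.94 in 3-mark islands. Between 2000 and 4000 bp it was 3.40 in 696 H3K4me1-free islands and 6.33 in 3-mark islands. From 4000 bp upward it was 2.45 in 84 H3K4me1-free islands and 7.50 in 3-mark islands. The share of islands with H3K27ac that had no H3K4me1 was 13.2% (12.4 to 14.0%) below 1000 bp, 8.32% from 1000 to 2000 bp, 3.46% from 2000 to 4000 bp and 0.742% (0.600 to 0.918%) above that. A longer island has more bases with which to meet an H3K4me1 island, and the part of this in the shares was not tested.

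H3K27ac at these places was mostly a single small island lying inside the H3K122ac island. The H3K27ac list was called with a gap of 200 bp, against 600 bp for H3K122ac. The part of this setting in length, nesting and number was not tested. Exactly 1 H3K27ac island was met by 2914 of them (94.1%), against 77.3% of 3-mark islands. The H3K27ac island had a median length of 800 bp, against 2000 bp at 3-mark islands, and in 2176 cases (70.3%) both of its ends lay inside or at the ends of the H3K122ac island, against 47.3% at 3-mark islands. Both marks had identical ends in 456 islands. H3K27ac covered a median of 70% of the H3K4me1-free island and 88.6% of the 3-mark island, and it covered under 50% of 796 H3K4me1-free islands (25.7%), against 11.8% of 3-mark islands. The median H3K27ac fold was 2.30 (2.23 to 2.36) at H3K4me1-free islands and 2.99 (2.97 to 3.01) at 3-mark islands. An H3K27ac fold of 3 or more was reached at 1066 H3K4me1-free islands (34.4%; 32.8 to 36.1%) and at 49.8% of 3-mark islands, beside 27.9% over all H3K27ac islands. At the edge of the rule, 132 islands shared 200 bp with H3K27ac, the width of a single window.

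Sorted by H3K122ac fold, the H3K4me1-free islands changed in setting from one end to the other. The 825 with a fold under 3 had a median of 35.6 H3K122ac reads per kb over 67.3 background reads per kb, and their nearest H3K4me1 island was at a median distance of 2200 bp. The 751 with a fold of 5 to 10 had 71.7 over 40 reads per kb, with H3K4me1 at 6000 bp. The 376 with a fold of 20 or more had 132.5 over 17.9 reads per kb, with H3K4me1 at 12600 bp. Higher fold thus went with more immunoprecipitated reads and with fewer background reads, the counts whose ratio makes the fold. H3K27ac moved less in reads, from a median of 78.1 per kb of H3K27ac island below a fold of 3 to 105.9 per kb at 20 or more, while its median fold was 1.58 and 7.60 in those ranges.

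Setting the same fold range beside 3-mark islands showed how thin the background was. At a fold of 20 or more, H3K4me1-free islands had a median of 132.5 H3K122ac reads per kb and 17.9 background reads per kb, against 206 and 32.9 in 2492 3-mark islands. Their median length was 1200 bp, against 2600 bp. At a fold under 3, background was alike in both, at 67.3 and 67.8 reads per kb, with 35.6 H3K122ac reads per kb in H3K4me1-free islands and 38.8 in 3-mark islands.

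**Figure D2:**
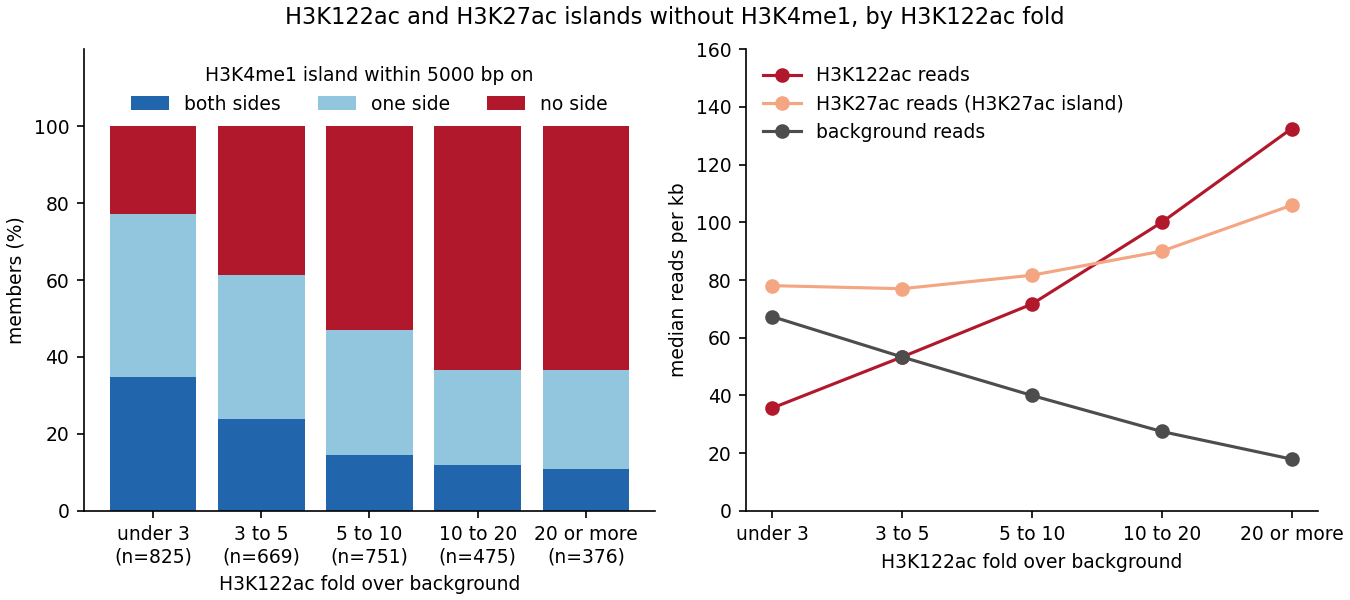
Left, share of H3K4me1-free islands with an H3K4me1 island within 5000 bp on both sides, one side or no side, by range of H3K122ac fold; right, median reads per kb of H3K122ac, H3K27ac and background in the same ranges. The share with H3K4me1 on both sides is 34.7% below a fold of 3 and 10.9% at 20 or more, and median background is 67.3 and 17.9 reads per kb in those ranges.

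Many H3K4me1-free islands lay near H3K4me1 and many did not. An H3K4me1 island lay within 5000 bp on both sides of 652 islands, or 21.1% (19.7 to 22.5%), on one side of 1061 (34.3%) and on no side of 1383 (44.7%; 42.9 to 46.4%). Among the 7236 H3K122ac islands with neither other mark the shares were 8.29% on both sides and 65.1% on no side. The 652 flanked islands sat in gaps of the H3K4me1 list with a median width of 5800 bp, and the H3K4me1 islands beside them had a median fold of 2.71, close to the 2.72 of the whole H3K4me1 list. Their median H3K122ac fold was 3.28, against 4.31 with H3K4me1 on one side and 7.58 on no side. Their median H3K27ac fold was 1.95, against 2.13 and 2.70. Background was 52.7, 49 and 38.3 reads per kb in these 3 groups. Its part in the order of the folds was not tested.

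The islands that came closest to H3K4me1 without meeting it departed from that order. In all, 51 lay 0 to 200 bp from an H3K4me1 island, 28 of them directly beside it, and their median H3K122ac fold was 22.1. Of these 51, 40 had a fold of 10 or more (78.4%; 65.4 to 87.5%), against 31 of 106 at 400 to 600 bp and 60 of 360 at 800 to 1000 bp, where 16.7% did. They were dense in H3K122ac, with a median of 129 reads per kb over 28.8 background reads per kb, and their median H3K27ac fold was 6.67. At 800 to 1000 bp the medians were 48.8 H3K122ac reads and 52.5 background reads per kb, with an H3K27ac fold of 1.98. Just outside the rule, the 166 3-mark islands that shared exactly 200 bp with H3K4me1 had a median H3K122ac fold of 17.2 over 30.8 background reads per kb. Islands with neither other mark at 0 to 200 bp from H3K4me1 numbered 35 and had a median fold of 7.39 at 42.5 H3K122ac reads per kb. These distances were singled out after their values were seen.

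Single places in the narrowest gaps between H3K4me1 islands were examined among islands with at least 100 H3K122ac and 10 background reads (all coordinates hg19). At chr14:78173401-78175800, 386 H3K122ac reads over 69 background reads gave a fold of 21.7 across 2400 bp, with H3K4me1 islands of fold 6.80 and 6.52 directly on either side. A single H3K27ac island of 4600 bp and fold 6.24 ran across the whole gap into both of them. At chr17:7211601-7212400, 190 reads over 26 gave a fold of 28.3, with H3K4me1 at 1000 bp and 200 bp. The gap was 2000 bp wide, the narrowest of these. At chrX:24042001-24043200 the fold was 17.0 from 114 reads over 26, the H3K27ac fold was 11.4, and H3K4me1 of fold 9.19 lay 400 bp away. The other 2 were chr16:72042001-72043200, with a fold of 17.9 and H3K4me1 at 600 and 400 bp, and chr2:231578201-231579200, with a fold of 12.2 and H3K4me1 of fold 8.44 and 6.67 at 800 bp on each side. Called H3K4me1 broke off for 2000 to 2600 bp at these 5 places, and their folds are not typical: the minimum of 100 reads favours high folds in short islands, while the 652 islands with H3K4me1 on both sides had a median of 62 reads and a fold of 3.28.

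Among islands with at least 100 H3K122ac and 10 background reads, the highest H3K122ac folds stood on few background reads. At chr22:50246001-50247200, 216 H3K122ac reads over 14 background reads gave 59.7, with an H3K27ac fold of 13.7 and an H3K4me1 island of fold 4.05 starting 1000 bp away. At chr19:20959001-20959800, 183 reads over 12 gave 59.0, and the nearest H3K4me1 island lay 244600 bp away. The next were chr11:3425201-3426200 with 55.3 from 200 reads over 14, chr17:45569001-45570800 with 54.2 from 182 over 13, and chr3:125634001-125636400 with 54.2 from 140 over 10. All 5 had at most 15 background reads per kb, beside the median of 45 over all 3096. Deeper support was found at chr14:50064201-50067000, which had 828 H3K122ac reads over 60 for a fold of 53.4 and 621 H3K27ac reads over 57 for a fold of 15.8. An H3K4me1 island of fold 6.72 ended directly beside it.

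That last island was also among the 5 with the highest H3K27ac fold under read minimums. The ranking covers islands with at least 100 reads and 10 background reads in the H3K27ac island too, and without these minimums the highest H3K27ac fold was 40.7. The highest so ranked was chr4:162475601-162477800, at 19.5 from 281 reads over 21, with an H3K122ac fold of 35.6 from 184 reads over 20. An H3K4me1 island of fold 10.4 lay 1800 bp to one side, and none lay within 2066200 bp on the other. At chr14:28313601-28315600 the H3K27ac fold was 19.1 and at chr4:66864601-66866400 it was 17.2, with H3K122ac folds of 32.4 and 41.4 and no H3K4me1 island within 98600 and 25400 bp. At chr20:52205201-52209800, of 4600 bp, the H3K27ac fold was 15.5 and the H3K122ac fold 15.7, and strong H3K4me1 islands of fold 11.7 and 5.86 lay 1000 and 2600 bp away.

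Some H3K4me1-free islands stood far from any H3K4me1. The nearest H3K4me1 island was over 50000 bp and up to 1000000 bp away for 354 islands (11.4%), whose median H3K122ac fold was 11.2 and median H3K27ac fold 3.42, and over 1000000 bp away for 14. Median background was 31.6 reads per kb at the 354 and 20.4 at the 14. It was 51.25 at the 1196 H3K4me1-free islands with H3K4me1 over 1000 and up to 5000 bp away. The part of background in these folds was not tested. Islands with neither other mark at over 50000 and up to 1000000 bp numbered 1274 (17.6%) and had a median H3K122ac fold of 6.34 at 35.6 background reads per kb. The farthest H3K4me1-free island named was chr9:68455001-68456400, with 196 H3K122ac reads over 29 and a fold of 26.2. Its H3K27ac fold was 6.48, and no H3K4me1 island lay within 2575400 bp on its nearer side. A pair on X, chrX:141292001-141293600 and chrX:140990601-140992800, lay in the same H3K4me1 gap of 7975400 bp, with H3K122ac folds of 36.4 and 15.4 and H3K27ac folds of 10.2 and 8.73. The second H3K27ac value rested on 48 reads over 8. At chr13:89813601-89816600 the folds were 17.5 and 11.6, and at chr21:9647401-9648600 they were 25.6 and 6.30, where no H3K4me1 island was called on one side up to the chromosome end. In these 5 places H3K122ac folds were 15.4 to 36.4 and H3K27ac folds 6.30 to 11.6, with no H3K4me1 island called within 1000000 bp.

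The longest H3K4me1-free islands had low folds, and 4 of the 5 named had over 100 background reads per kb. The longest was chr13:108651401-108661000, of 9600 bp, where 613 reads over 1428 gave an H3K122ac fold of 1.66, and 2 H3K27ac islands covered 31.2% of it. At chr9:133994201-134002600 and chr9:134108801-134117200, each of 8400 bp, background reached 288 and 214 reads per kb, and H3K122ac folds were 3.30 and 1.12. Such islands were rare: 12 H3K4me1-free islands had over 150 background reads per kb, 4 of them on chromosome 22 and 2 on chromosome 9. Just outside the length limit lay 3 islands, of which 2 on chromosome 22, of 38600 and 30000 bp, had 283 and 277 background reads per kb and folds of 1.51 and 1.41. The last was an island of 16400 bp on the mitochondrial chromosome with a fold of 2.83. The remaining long ones were chr4:27344601-27353000, of 8400 bp and fold 3.21, and chr6:43822201-43829200, of 7000 bp and fold 2.23.

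The 3 islands with the most H3K27ac islands differed in strength. Gaps of up to 200 bp were joined in the H3K27ac list and of up to 600 bp in the H3K122ac list. The number of H3K27ac islands at a place depends on that setting. At chr3:196722801-196729200, 4 H3K27ac islands of fold 1.48, 1.89, 1.77 and 1.80 lay along 6400 bp with an H3K122ac fold of 1.97, and at chr1:234872801-234877400, 3 of fold 2.30, 1.84 and 2.16 lay along 4600 bp with 1.87. At chr12:40833601-40839200, 3 of fold 3.72, 4.58 and 2.99 lay along 5600 bp with an H3K122ac fold of 6.12, and H3K4me1 was 202200 bp away. The first 2 had H3K4me1 within 5000 bp on both sides.

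How often H3K4me1 was missing along a ranking differed between fold and reads per kb, which are counts not corrected for background. Ranked by H3K122ac fold, with at least 10 background reads, the share of islands with H3K27ac that had no H3K4me1 was 9.16% (8.43 to 9.95%) in decile 1, 3.75% (3.28 to 4.29%) in decile 9 and 8.21% (7.52 to 8.97%) in decile 10. Ranked by H3K27ac fold it was 12.1% in decile 1, 2.84% in decile 9 and 4.84% in decile 10. Ranked by reads per kb, which leaves background out, no such upturn appeared. The share was 9.85%, 3.10% and 1.94% (1.61 to 2.34%) in deciles 1, 9 and 10 of H3K122ac reads per kb, and 15.1%, 1.09% and 0.892% for H3K27ac reads per kb.

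**Figure D3:**
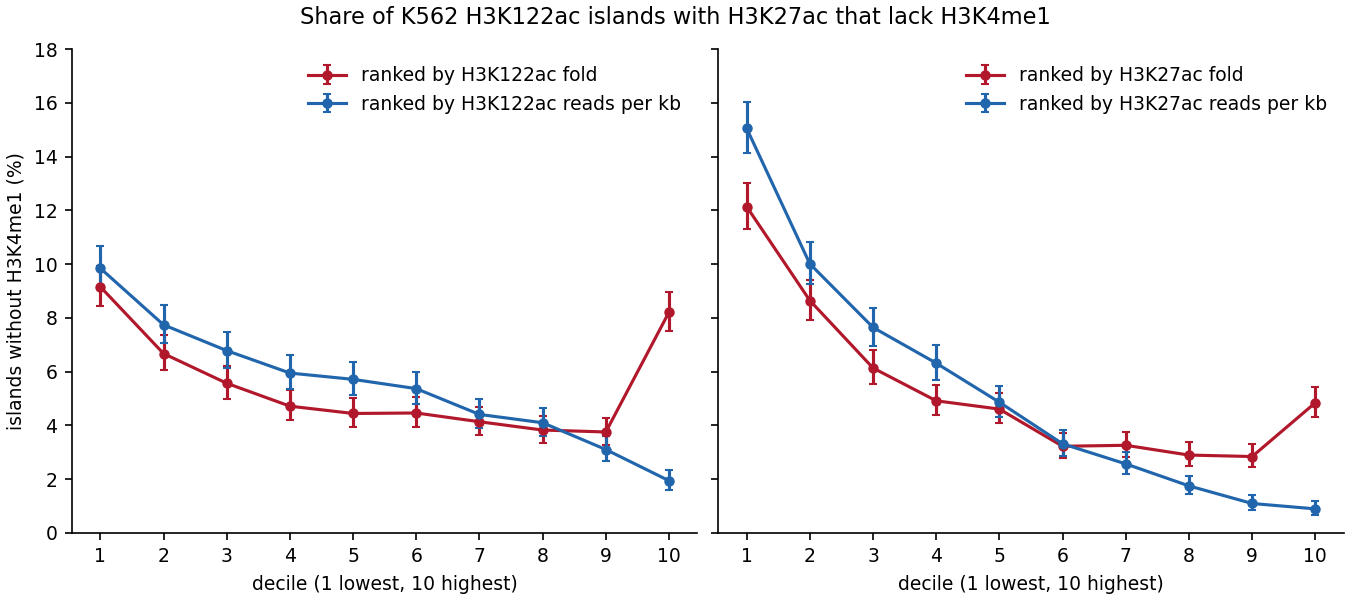
Share of K562 H3K122ac islands under 10000 bp with H3K27ac that lacked H3K4me1, by decile of H3K122ac (left) or H3K27ac (right), with Wilson 95% intervals. Red ranks by fold over background and blue by reads per kb, which are not corrected for background. The share turns up to 8.21% in the top decile of H3K122ac fold, and is 1.94% in the top decile of H3K122ac reads per kb.

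The upturn was seen in the group of lowest background, and the highest fold group was also above the next one in each length range below 4000 bp. Islands with H3K27ac were divided into 3 equal groups by background reads per kb, and each group into 5 by H3K122ac fold. In the group of lowest background, up to 44.4 reads per kb, the share without H3K4me1 was 8.60% in the lowest fold group and 11.3% (10.3 to 12.3%) in the highest. In the middle group the shares were 7.59% and 1.20%, and in the group of highest background 9.09% and 0.952%. The highest fold group began at a fold of 16.9, 10.4 and 6.68 from lowest to highest background. These shares are therefore not compared at like fold. Divided by length instead, the shares in the lowest, the next-to-highest and the highest fold group were 10.5%, 12.7% and 18.7% below 1000 bp, 9.90%, 6.43% and 12.3% from 1000 to 2000 bp, and 7.57%, 1.44% and 3.23% from 2000 to 4000 bp. From 4000 bp upward they were 2.52%, 0.177% and 0.354%, the last from 8 H3K4me1-free islands. Across all deciles of background the share was 13.9% in decile 1, at most 30.8 reads per kb, 3.72% in decile 7 and 5.60% in decile 10.

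The fold needed for a call in the H3K4me1 list was higher at low background, and the part of this in the missing calls was not tested. The p-values of that list equal the Poisson tail of the count over background times the library ratio, and the largest p-value listed was 0.00902. By that p-value alone the H3K4me1-free islands would have needed a median H3K4me1 fold of 1.45. The median was 1.30 in those with an H3K122ac fold under 3 and 1.72 in those at 20 or more. The 90th percentile at 20 or more was 2.15. No listed H3K4me1 island had under 28 reads, a limit left out here, so these folds are lower bounds. Called H3K4me1 islands of about the same length and background were stronger at the low-background end. Such matches were found for 3028 of the 3096. They were found for 324 of the 376 with an H3K122ac fold of 20 or more, and for 819 of the 825 under 3. The 5th percentile of their folds had a median of 1.38 beside islands with an H3K122ac fold under 3, and of 3.82 beside those at 20 or more. The lowest fold among those matched islands had a median of 1.28 and of 3.22 in the same ranges. The folds of matched islands describe islands that were called and do not set the limit of a call. An H3K4me1 signal too weak for a call cannot be told apart from none in these lists. H3K4me1 counts at the 3096 islands were not analysed here. For comparison, the median H3K4me1 fold at 3-mark islands with an H3K122ac fold of 20 or more was 4.45.

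H3K122ac and H3K27ac folds ran in parallel across the 3096 islands. Spearman's rho was 0.82, against 0.72 across 52153 3-mark islands, and both folds share a background library. H3K122ac fold and background reads per kb had a rho of -0.78 in H3K4me1-free islands and -0.53 in 3-mark islands. Background is the divisor of the fold, so a negative rho is partly built in. For reads per kb of both marks, without background, rho was 0.42 in H3K4me1-free islands and 0.61 in 3-mark islands. These are descriptions across islands, which are not replicates.

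**Figure D4:**
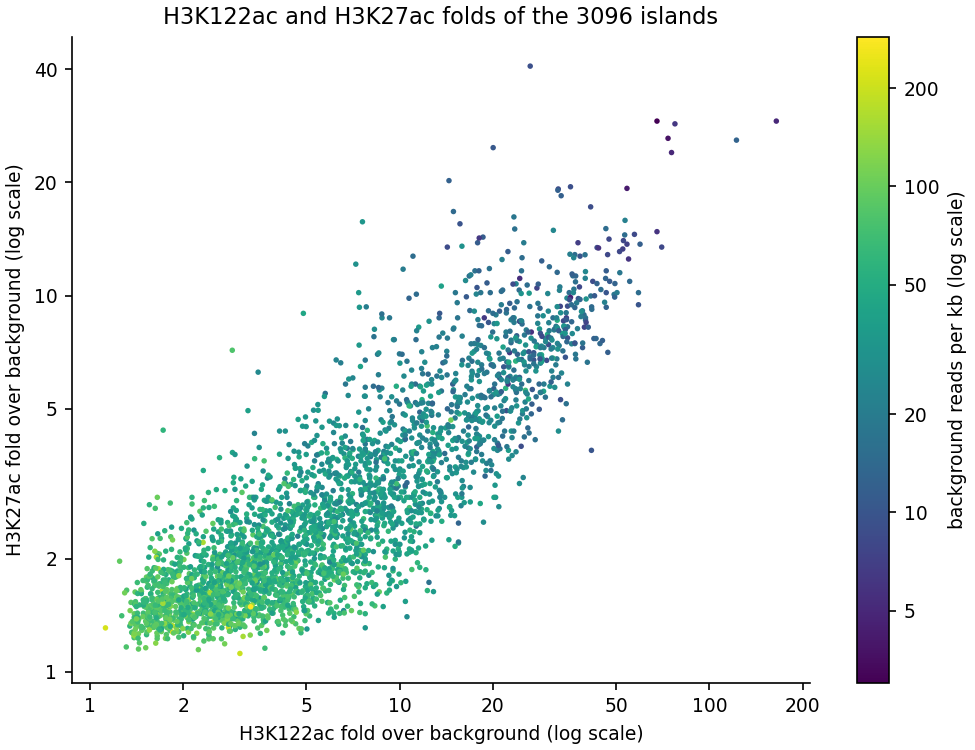
H3K122ac fold against H3K27ac fold at each of the 3096 H3K4me1-free islands, on log scales, coloured by background reads per kb. Points run along a diagonal with a rho of 0.82, and background is high at low folds and low at high folds.

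By chromosome, the share of islands with H3K27ac that had no H3K4me1 was highest on chromosome 13, at 106 of 1116 islands or 9.50% (7.91 to 11.4%), followed by chromosome 4 with 7.17% (6.22 to 8.26%). Chromosome 17 had the lowest share, 105 of 2545 or 4.13% (3.42 to 4.97%), and chromosome 11 the next, 4.29% (3.61 to 5.09%). On chromosome 13 the H3K4me1-free islands had a median fold of 12.0, 32 of them reached 20 or more, and median background was 23 reads per kb. On chromosome 17 the median fold was 4.52 at 47.9 background reads per kb. All islands with H3K27ac had a median background of 36.0 reads per kb on chromosome 13 and 49.5 on chromosome 17. Called H3K4me1 islands lay a median of 5600 bp apart on chromosome 13, against 3400 bp on chromosome 17. The part of background or of H3K4me1 spacing in the difference was not tested.

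**Figure D5:**
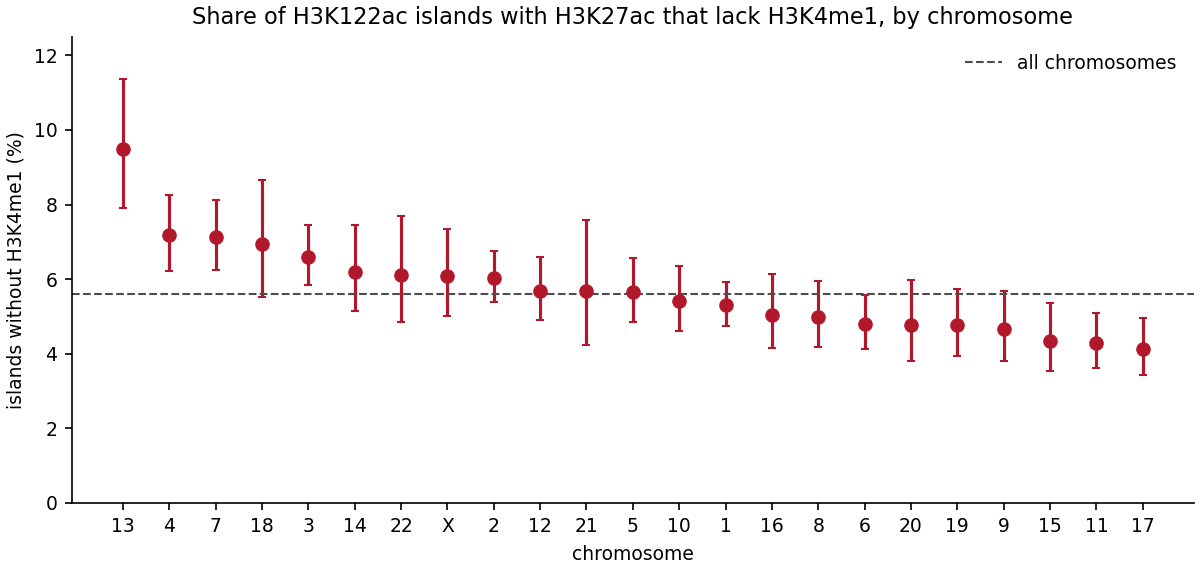
Share of H3K122ac islands under 10000 bp with H3K27ac that lacked H3K4me1 on each chromosome, with Wilson 95% intervals, in falling order; the dashed line is the share over all chromosomes, 5.60%. Chromosome 13 stands highest at 9.50% and chromosome 17 lowest at 4.13%.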

How the data were processed

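Micrococcal nuclease chromatin immunoprecipitation from K562 was analysed from 3 deposited lists, 1 library per mark. SICER 1.1, HOMER 4.3, Bowtie 0.12.8 and build hg19 are named, without their roles, per the submitters' processing notes. Per the labels of the lists, windows were 200 bp, the false discovery rate 0.01, and gaps 600 bp, or 200 bp in the H3K27ac list. The deposited lists give whole-number read counts for the mark and for background, a p-value, a q-value, and the fold, a ratio of these counts over a library ratio. A background count of 0 was entered by the authors as 0.25. The sources used here do not name the background library.

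Overlaps, distances and intervals were computed with Python 3.11.15, numpy 2.4.6, pandas 2.3.3 and scipy 1.17.1, and drawn with matplotlib 3.10.9. The overlap code was tested on simulated islands. Coordinates are 1-based. Where an island met several H3K27ac islands, the fold is that of the one sharing most bases. Shares carry Wilson 95% intervals and medians binomial ones. H3K4me1 islands were matched within 200 bp of length and 20% of background, where at least 20 existed.

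Named regions were, among 974 islands with at least 100 reads and 10 background reads on numbered chromosomes except 8 and on X, the 5 with the highest H3K122ac fold, length, H3K27ac fold (with the same minimums in the H3K27ac island), narrowest H3K4me1 gap and distance from H3K4me1, and the 3 with most H3K27ac islands. The 2 highest and 2 lowest chromosomes were named too. The islands and these lists were chosen with earlier results of these data known. Alternatives changed the overlap, distance, strength, q-value, length, chromosomes and background minimum.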

Additional observations from a re-analysis of the deposited data

How the results depend on the processing

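With 1 library per mark no replicate could be left out. No paired analysis was possible because the K562 libraries have no replicates and no result comes from a test. For 6 results, 8 alternatives, and 2 chosen after seeing the data, gave 59 values, of which 32 stayed within the counting interval of the original value or, for the number of islands, within 1.5 times it. The share with H3K4me1 on both sides has no value when no H3K4me1 is allowed within 5000 bp. The log2 ratio of median H3K122ac fold, H3K4me1-free over 3-mark islands, was -0.19 and changed sign in 4 alternatives. It was 0.056 at a q-value of at most 1e-10, 0.66 when H3K27ac needed a fold of 3, 0.062 when H3K122ac needed a fold of 3 and 0.35 with no H3K4me1 within 5000 bp. The cause was not tested.

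When H3K4me1 islands needed a fold of 2, the islands numbered 8544, or 15.5% of those with H3K27ac, with a log2 ratio of -0.85, a median length of 1600 bp, a median H3K27ac fold of 1.86 and 13.3% with H3K4me1 on both sides. When H3K27ac needed a fold of 3, these were 1087 islands, 3.82%, an H3K27ac fold of 4.99 and 14.4% on both sides. With no H3K4me1 within 5000 bp, 1383 islands or 2.50% were left, with an H3K27ac fold of 2.70. With none within 1000 bp the share was 4.67%, and 14.2% had H3K4me1 on both sides. With H3K27ac over at least 50% of the island, the share was 4.76%, the median length 1000 bp and the H3K27ac fold 2.21. At a q-value of at most 1e-10 the H3K27ac fold was 3.30 and 14.8% had H3K4me1 on both sides. With an H3K122ac fold of 3 or more the share was 5.05%, the H3K27ac fold 2.83 and 16.1% had H3K4me1 on both sides.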

Other observations

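The H3K4me1-free islands fell into 1528 bins of 1 Mb, of which 731 held 1 island and 87 held 5 or more, and neighbouring ones lay a median of 403000 bp apart, with 91 pairs 5000 bp or less apart. Whether this spacing departs from an even spread was not tested. The fullest bin, chr3:165000001-166000000, held 12 among 43 islands with H3K27ac, with H3K122ac folds from 3.24 to 20.1. In chr2:141000001-142000000, 9 of 11 islands with H3K27ac had no H3K4me1, and in chr2:82000001-83000000 8 of 12, with median folds of 8.95 and 10.1 and background of 30 and 28.0 reads per kb. In chr21:31000001-32000000, 9 of 32 had none, at a median fold of 3.48 and 57.5 background reads per kb. These bins were singled out after their values were seen.

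Nearness to other H3K122ac islands was intermediate. A 3-mark island lay within 5000 bp of 1221 H3K4me1-free islands (39.4%; 37.7 to 41.2%), against 55.8% of 3-mark islands, 31.7% of islands with H3K4me1 and no H3K27ac, and 16.9% of islands with neither other mark. The nearest H3K122ac island of any kind lay a median of 5000 bp from H3K4me1-free islands, against 3200, 5600 and 11000 bp for those 3 classes in the same order. A total of 326 H3K4me1-free islands had under 20 background reads per kb, 35 of them on chromosome 13. Their median H3K122ac fold was 23.9 and their median H3K27ac fold 7.77.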
